A study of Rattus norvegicus with 4 samples.

Results

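The intronic H1T2 peaks are the regions of the deposited H1T2 peak list whose centre lies in an intron of an annotated transcript. They were found by matching the study's annotation table to the peak list by chromosome, start and end, and by keeping the peaks annotated as intron. This gave 330 of the 1930 peaks whose annotation was used here, called the annotated peaks below, or 17.1% (95% Wilson interval 15.5 to 18.8), and the list holds 11570 peaks in all. The annotation brackets name 256 host transcripts and the number of the intron in each. The annotation table was read here only in part, up to the 1930 peaks of the smallest p-values (16.7% of the list, each with a -log10 p-value of at least 17.78), so that every share below describes strong peaks. For the rest of the list no annotation was used here.

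The data come from chromatin immunoprecipitation with an H1T2 antibody on nuclei of rat testes, followed by sequencing. The rats were 35 to 50 days old, and the labels name round and elongating spermatids as the cell type, although nuclei were prepared from testis. There were 2 H1T2 IP samples and 2 input samples, the inputs taken from the same kind of sonicated chromatin without antibody. By its header the deposited list was called on the 2 IP samples merged against the 2 inputs merged, so that each peak has 1 value and no test across samples was made. The study's text also describes calls on each replicate and a list of the peaks that the replicates had in common. That account differs from the header, and it could not be checked on the merged values. After the authors' filter 16203958 tags remained for the IP and 78371120 for the input, and the depth of each sample alone is not recorded.

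H1T2 is a linker histone made in round and elongating spermatids, the haploid germ cells that compact their chromatin as histones give way to transition proteins and protamines. Introns of mammalian genes hold many copies of transposable elements, among them L1, a LINE retrotransposon that copies itself through RNA, and in the rat also the repeat called RatSatRep2. Telomeres end in a tandem hexamer, and short arrays of the same hexamer also occur inside chromosomes, introns included.

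The sequences on which several of the peaks turn are given first. The 4 intronic peaks at telomere-type repeats are annotated with the following units, shown because all 4 are rotations of the telomere hexamer or of its complement. The host name Cyp2b1 is uncertain, since RefSeq (GRCr8) has that gene on another chromosome than the peak.
unit in Cyp2b1: GTTAGG
unit in Ptprr: TTAGGG
unit in Cacna2d3: AACCCT
unit in Ccdc91: ACCCTA

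Among the other simple repeats, 11 peaks outside the ribosomal RNA hosts described below had a fold enrichment of at least 10, and the units of all 11 are shown for comparison with the telomere type. The first 4 of these units are GGT triplets in tandem and the next 3 GAA triplets in tandem, on either strand and from any start. The next 2 are rotations of a pyrimidine-rich hexamer. Read in tandem, the units of Lrp1b and Cdyl also hold a GAA, and the telomere-type units a GGT on either strand. C7h12orf75, Slc17a5 and Cdyl are taken by the rule for named genes, and the other hosts were chosen after their values were seen.
unit in C7h12orf75: GGTGGT
unit in Scg3: GGTGGT
unit in Ly9: TGGTGG
unit in Slc17a5: ACC
unit in Gpr158: TTC
unit in Magi1: GAA
unit in Pdcd11: CTTCTTCTT
unit in Srpk2: TGCCTC
unit in Supt5h: CTGCCT
unit in Lrp1b: GAAGGA
unit in Cdyl: AGGA

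Several hosts carry a microRNA gene. The mature sequences below, credited to RefSeq (GRCr8), belong to microRNA genes that are the nearest transcription start to an intronic peak and lie inside its host gene. Capitals mark the seed, bases 2 to 8, and no seed is shared among the 5.
rno-miR-592: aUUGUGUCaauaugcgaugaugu
rno-miR-1298: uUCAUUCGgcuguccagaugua
rno-miR-105: cAAGUGCUcagaugucuguggu
rno-miR-218b: cAUGGUUAgaucaagcacaa
rno-miR-551b-3p: gGCGACCCauacuugguuucagu

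Enrichment at the intronic peaks was moderate for most and very high for a few. The pileup counts the IP tags at the summit of a peak, the local background is the count that the input and the genome average predict there, and fold enrichment is their ratio. Over the 330 peaks the ratio had a median of 7.47 (quartiles 5.64 and 9.67), and it ran from 2.74 to 110.1. The middle of the distribution was therefore narrow, while the highest peak stood far above it. The pileup had a median of 50 tags (quartiles 36 and 69.5, range 22 to 262), and the local background a median of 6.82 tags (quartiles 3.76 and 11.6). All 330 peaks passed the same cut on p-values, which a low fold reaches only on a high background. Peaks were short. The median peak measured 368 bp (quartiles 271 and 571 bp) and the longest 4601 bp.

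A fold enrichment of at least 10 was reached by 78 of the 330 peaks, or 23.6% (Wilson interval 19.4 to 28.5), beside 7.87% of the whole list, 26.1% of the annotated peaks and 26.0% of the intergenic ones. The intronic share was thus near that of the annotated peaks as a group, and the part of the annotation table read here holds the smallest p-values of the list. Each of the 78 peaks was in a different host transcript. By feature at the centre, 31 were at L1, 18 at RatSatRep2, 11 at simple repeats, 9 at no repeat and 5 at CpG islands, and the other 4 were at 2 satellites, 1 long terminal repeat and 1 telomere-type repeat. A fold enrichment of at least 5 was reached by 279 peaks (84.5%, 80.3 to 88.0), beside 81.1% of the annotated peaks and 68.6% of the list. Wilson intervals of shares, and the exact Poisson intervals given below for single peaks with the background held fixed, cover counting error only. All pileups of the intronic peaks were even numbers, as when both tags of a pair are counted, so that intervals for single peaks are too narrow. When tags were counted by pairs, 319 of the 330 peaks (96.7%) still had a p-value of at most 1e-10. Of the annotated peaks that passed in this way, 17.3% were intronic (15.7 to 19.1), beside 17.1% of all annotated peaks.

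Most intronic peaks lay at repeats. L1 was annotated at the centre of 130 of the 330 peaks (39.4%, 34.3 to 44.8) and RatSatRep2 at 103 (31.2%, 26.5 to 36.4). No repeat was named at 42 peaks (12.7%, 9.56 to 16.8), or at 6.81% with a fold of at least 5 required. The remaining peaks were spread over simple repeats other than the telomere type (17), CpG islands (13), long terminal repeats (7), ribosomal RNA repeats (6), satellites (4), telomere-type repeats (4), SINEs (3) and 1 copy of the small RNA element BC1. Intergenic peaks, 1501 in number, had L1 at 40.0% (37.6 to 42.5), RatSatRep2 at 28.8% (26.5 to 31.1) and no repeat at 11.3% (9.76 to 13.0). The intervals of all 3 classes overlapped between intronic and intergenic peaks. Satellites were at 1.21% of the intronic peaks (0.472 to 3.07) and at 7.66% of the intergenic ones (6.42 to 9.12), and these intervals did not overlap; the difference was not tested.

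**Figure D1:**
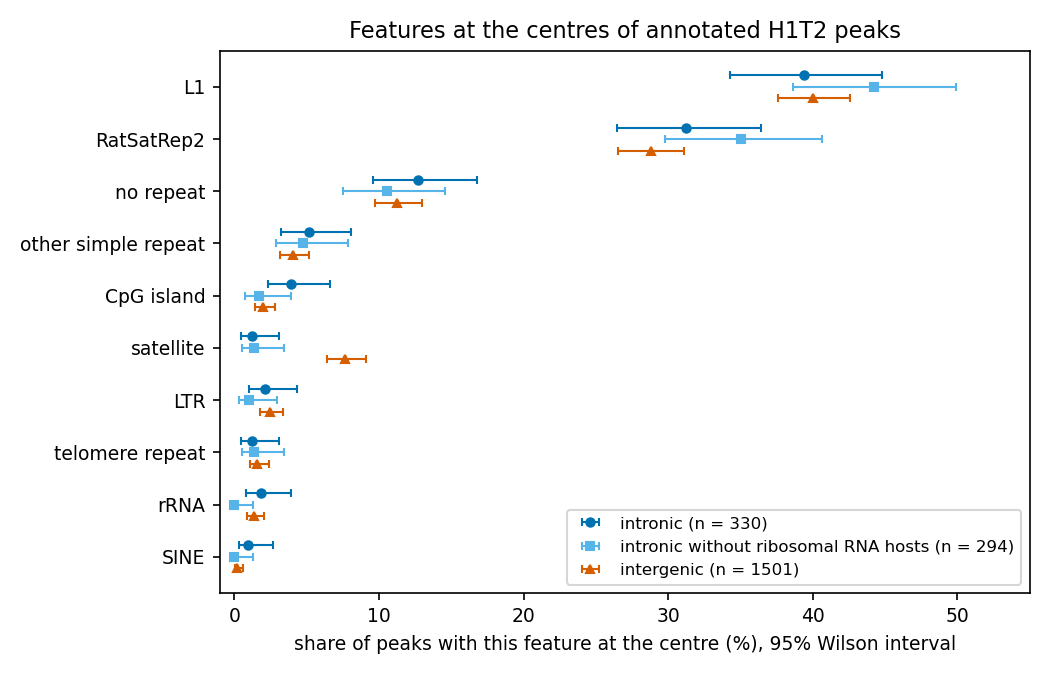
Share of annotated H1T2 peaks with each feature at the centre (x axis, percent, with 95% Wilson intervals) for the intronic peaks, the intronic peaks without the ribosomal RNA hosts, and the intergenic peaks. L1 and RatSatRep2 lead in all 3 groups, and satellites are at 1.21% of the intronic and 7.66% of the intergenic peaks.

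A group of 36 intronic peaks had hosts at ribosomal RNA genes. These hosts were a transcript that RefSeq names Rn45s, the symbol of the ribosomal RNA precursor, and LOC257642 and LOC310926, whose introns on chromosome 14 lie beside it in the build and hold or adjoin ribosomal RNA repeats. All 36 had fold enrichments under 10, with a median of 3.99 (quartiles 3.09 and 5.42, range 2.74 to 7.92), on a high local background (median 32.6 tags, range 13.7 to 63.5). Their pileups were high as well, with a median of 128 tags. The other 294 peaks, in 253 hosts, had a median fold of 7.74 (quartiles 6.20 and 10.2), a median background of 5.79 tags and a median pileup of 46 tags. Ribosomal RNA hosts thus combined many tags with low ratios, and in the other hosts 78 of 294 peaks (26.5%, 21.8 to 31.9) had a fold of at least 10. Without the ribosomal RNA hosts, L1 was at 44.2% of the peaks (38.7 to 49.9), RatSatRep2 at 35.0% (29.8 to 40.6) and no repeat at 10.5% (7.53 to 14.6).

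**Figure D2:**
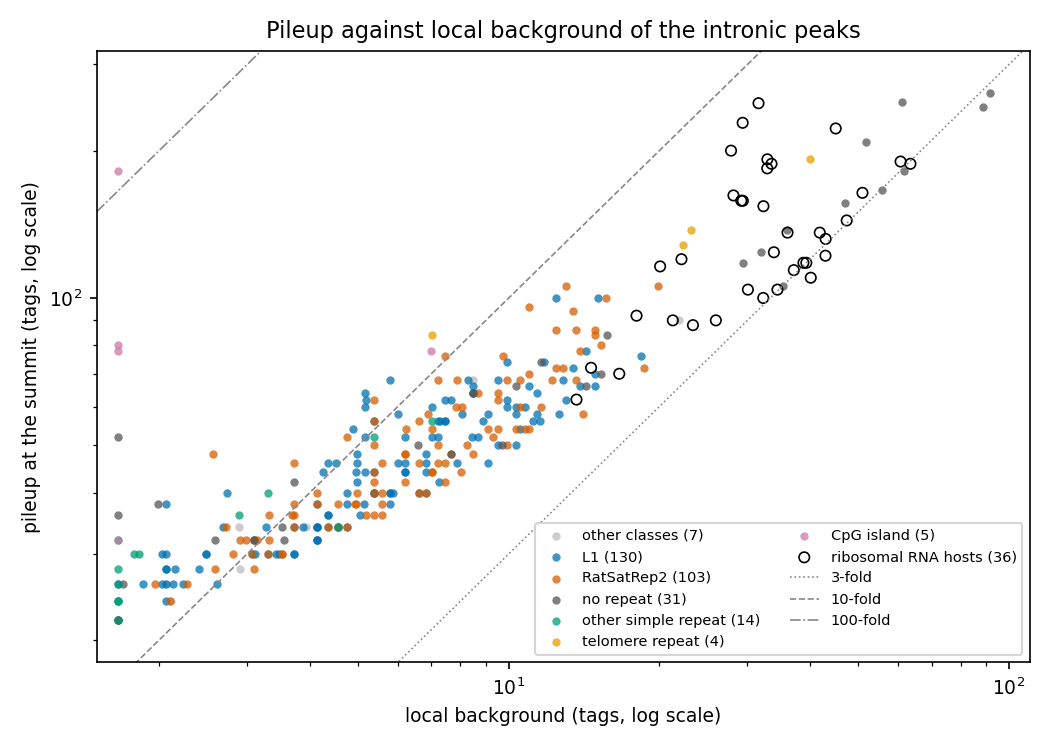
Pileup at the summit (y axis, tags, log scale) against local background (x axis, tags, log scale) for the 330 intronic peaks, coloured by the feature at the centre, with lines at fold enrichments of 3, 10 and 100. Peaks in ribosomal RNA hosts (open circles) have backgrounds of 13.7 to 63.5 tags, and the column of points at the left edge is the genome background of 1.65 tags.

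CpG islands gave the highest enrichments. Of the 13 intronic peaks centred on a CpG island, 5 had a fold of at least 10. Among the 30 intergenic ones 12 did, with a highest fold of 107.65. The 5 intronic peaks were all of those at CpG islands outside the ribosomal RNA hosts. The highest was in intron 1 of 6 of Sdf4, which encodes a calcium-binding protein of the Golgi lumen, at chr5:173429327-173430483 (rn6). The study lists the same coordinates among the peaks it chose for PCR on immunoprecipitated DNA, and reports enrichment over an IgG control for all of them. The peak had 182 tags over a background of 1.65, a -log10 p-value of 297 and a fold enrichment of 110.1 (exact Poisson interval 94.7 to 127). It was 1157 bp long and lay 3.98 kb from the Sdf4 start site. Counted by pairs of tags its interval widened to 88.6 to 135, still above every other intronic peak, and its -log10 p-value fell to 150.

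The next peaks by enrichment were both at CpG islands. Sorcs3, a sorting receptor of neurons, had one in intron 12 of 26 at chr1:268524881-268526126 (rn6), with 80 tags and a fold of 48.4 (38.4 to 60.2). Pde1b, a phosphodiesterase activated by calmodulin, had one in intron 2 of 15 at chr7:145132630-145133946 (rn6), with 78 tags and a fold of 47.2 (37.3 to 58.9). These intervals overlapped almost wholly with each other and not with that of Sdf4. The Sorcs3 island lay 539 kb from the start site of the gene and the Pde1b island 15.3 kb, so that not all of the islands were near the start of their host.

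The other CpG islands outside ribosomal RNA hosts were lower. Arhgef40 had 32 tags in intron 3 of 24 at chr15:28382451-28383612 (rn6) and a fold of 19.4 (13.2 to 27.3). Tbc1d5, which acts on Rab GTPases in endosomal sorting, had a fold of 11.2 (8.82 to 13.9) in intron 4 of 21 at chr9:1431313-1431578 (rn6). The Tbc1d5 peak differed from the other 4 in being short (266 bp against 1157 to 1317 bp) and in its background of 6.99 tags, where the others were at the genome background of 1.65. In the ribosomal RNA hosts 8 peaks were at CpG islands, with folds of 3.77 to 7.92 and lengths of 260 to 4601 bp. The largest of these by p-value was in LOC310926 at chr1:11908999-11913081 (rn6), with 250 tags, a fold of 7.92 (6.97 to 8.97) and a -log10 p-value of 132.

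The genome background, the lowest value the local background can take, held for 17 intronic peaks within 1% (5.15% of the 330, 3.24 to 8.09). Of these, 7 were at simple repeats, 4 at CpG islands, 4 at no repeat and 2 at L1. No RatSatRep2 peak was among them, since the lowest background at that repeat was 1.96 tags. Folds at the genome background ran from 13.3 to 110.1 with a median of 15.7. The lower end follows from the cut on p-values. At this background the lowest pileup was 22 tags and the lowest -log10 p-value 18.07, close to the 17.78 that every annotated peak reaches. Intergenic peaks were at the genome background in 5.20% of cases (4.18 to 6.44), an interval that overlaps that of the intronic peaks.

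Simple repeats other than the telomere type also had high folds. Outside ribosomal RNA hosts there were 14 such peaks in 14 hosts, with a median fold of 14.5 (range 7.47 to 19.4) on a median background of 1.72 tags, and 11 had a fold of at least 10. Their pileups were small, 22 to 56 tags with a median of 30, so that the ratios rested on few tags over a low background. Of the 14, 7 were at the genome background, where only a high fold reaches the cut on p-values. Intergenic peaks of this class had a median fold of 12.9 on a median background of 2.27 tags, and 40 of 61 had a fold of at least 10. In C7h12orf75, where the unit is GGTGGT, 32 tags gave a fold of 19.4 (13.2 to 27.3) in intron 2 of 5 at chr7:26045481-26045797 (rn6). Scg3, a granin of secretory granules, carried the same unit with a fold of 16.5 (11.1 to 23.5). Ly9, a receptor of lymphocytes, carried TGGTGG with 15.7 (10.3 to 23.0). These units are the same tandem sequence read from different starts, and the intervals overlapped. Lrp1b, a member of the LDL receptor family, had the unit GAAGGA and a fold of 16.9 (11.2 to 24.5). Slc17a5, the lysosomal sialic acid exporter, Srpk2, a kinase of splicing factors, and Supt5h, a subunit of the DSIF elongation factor, each had 24 tags and a fold of 14.5 (9.30 to 21.6). The unit ACC in Slc17a5 is the GGT triplet read on the other strand, and TGCCTC in Srpk2 and CTGCCT in Supt5h are rotations of each other. At GAA triplets the folds were 16.9 (11.4 to 24.1) in Gpr158, 12.4 (8.71 to 17.2) in Magi1 and 12.1 (8.64 to 16.5) in Pdcd11, with overlapping intervals.

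The 4 telomere-type peaks had other values than these. Their pileups were high, 84 to 192 tags, and their backgrounds ran from 7.03 to 39.9 tags, so that the median fold was 5.85. Ptprr, a receptor-type tyrosine phosphatase, had the highest fold of the 4, 12.0 (9.53 to 14.8), in intron 6 of 13 at chr7:59248648-59248866 (rn6). Cacna2d3, an auxiliary subunit of calcium channels, had a fold of 5.96 (5.01 to 7.04) in intron 2 of 36 at chr16:5673431-5673670 (rn6). Ccdc91 had 5.73 (4.78 to 6.81) in intron 12 of 12 at chr4:182018886-182019132 (rn6). The peak whose transcript the annotation table assigns to Cyp2b1 had 4.81 (4.15 to 5.54) at chr7:99168137-99168614 (rn6). The interval of Ptprr did not overlap the other 3, which overlapped among themselves, and Ptprr also had the lowest background. Intergenic peaks of the same type, 24 in number, had a median fold of 6.03.

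L1 peaks were numerous and of middling enrichment. Their median fold was 7.74 (quartiles 6.48 and 9.77), on a median background of 5.38 tags and with a median length of 335 bp. The intergenic L1 peaks had a median fold of 8.37. By element, 86 of the 130 were annotated as L1_Rn (66.2%, 57.7 to 73.7), 23 as L1_Rat1 (17.7%, 12.1 to 25.2), 20 as RNHAL1 (15.4%, 10.2 to 22.6) and 1 as Lx4B, in Nrxn3, a host chosen after its values were seen. L1_Rn therefore made up the bulk, and its intergenic share of 61.6% (57.6 to 65.4) had an overlapping interval. The elements differed in length and background more than in fold: L1_Rat1 peaks had a median of 286 bp, a background of 3.72 tags and a fold of 8.64, while RNHAL1 peaks had a median of 520.5 bp, a background of 8.06 tags and a fold of 7.42. The highest fold at L1 was in Ros1, a receptor tyrosine kinase, where an RNHAL1 copy in intron 25 of 43 at chr20:33168853-33169167 (rn6) had 38 tags and a fold of 18.4 (13.0 to 25.2).

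RatSatRep2 peaks were longer. Their median length was 421 bp (quartiles 316.5 and 610.5 bp), their median fold 7.44 (quartiles 6.12 and 9.17) and their median background 6.62 tags. The intergenic RatSatRep2 peaks had a median fold of 7.64 and a median length of 402.5 bp, close to these. Of the 15 intronic peaks of at least 1 kb outside ribosomal RNA hosts, 10 were at RatSatRep2, 4 at CpG islands and 1 at L1. The highest fold at RatSatRep2 was in Acot9, a mitochondrial acyl-CoA thioesterase, with 48 tags and a fold of 18.7 (13.8 to 24.8) in intron 3 of 14 at chrX:43581175-43581510 (rn6).

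Peaks with no repeat at the centre covered a wide range. Over all 42 the median fold was 4.605 on a median background of 16.2 tags. Outside ribosomal RNA hosts there were 31, with a median fold of 6.27 on a median background of 10.3 tags. Of these, 11 in Phka2, Lmntd1 and Vom2r37, hosts set apart after their low folds and high backgrounds were seen, had folds of 2.77 to 4.13 on backgrounds of 29.4 to 91.6 tags. The other 20, each in a host of its own, had a median fold of 9.34 (range 4.58 to 31.5) on a median background of 3.64 tags. The highest was in Fkbp5, a co-chaperone of steroid receptors, with 52 tags and a fold of 31.5 (23.5 to 41.2) in intron 1 of 10 at chr20:8045431-8045755 (rn6). Atp2c1, the calcium and manganese pump of the Golgi, had a fold of 21.8 (15.2 to 30.1) in intron 19 of 30 at chr8:113973446-113973720 (rn6), where the nearest start site is that of Nek11. Clybl, a mitochondrial lyase, had a fold of 19.1 (13.5 to 26.3) in intron 1 of 7 at chr15:108653500-108654042 (rn6).

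The classes were also compared by the strength of the peaks. The 294 peaks outside ribosomal RNA hosts were split at their median -log10 p-value of 24.19 into groups of 147. L1 was at 39.5% (31.9 to 47.5) of the stronger and 49.0% (41.0 to 57.0) of the weaker peaks, and no repeat at 14.3% (9.54 to 20.9) and 6.80% (3.74 to 12.1). RatSatRep2 was at 32.7% (25.6 to 40.6) and 37.4% (30.0 to 45.5). The intervals overlapped in each class, and the differences were not tested. Of the 21 stronger peaks with no repeat, 10 were in Phka2, Lmntd1 and Vom2r37.

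Peaks were mostly alone in their host. Of the 256 host transcripts, 225 had 1 intronic peak, 23 had 2 and 8 had 3 or more. The 31 hosts with more than 1 peak held 105 of the 330 peaks, and 28 of them were not ribosomal RNA hosts. Among the 22 hosts outside ribosomal RNA with 2 peaks, both peaks were of the same class in 11, in the same intron in 10 and within 10 kb of each other in 7. Peaks of 1 host are not independent of each other.

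LOC257642 had the most, 21 peaks, all in intron 1 of 5 and all within 45.4 kb at chr14:46590180-46635562 (rn6). Their folds ran from 2.74 to 5.78 with a median of 3.13, and the list as a whole has 25 peaks in that stretch. LOC310926 had 13 peaks, 11 on chromosome 14 and 2 on chromosome 1, in introns 2 and 6 of 6, with a median fold of 5.11 (range 3.46 to 7.92). Rn45s had 2 peaks, both at the large ribosomal RNA repeat, with folds of 7.77 (6.79 to 8.85) and 5.38 (4.57 to 6.29). The Rn45s peak of the higher fold had 228 tags and a -log10 p-value of 119, and ranked 3 among all intronic peaks by p-value. Ribosomal RNA hosts held 6 of the 10 intronic peaks of the smallest p-values but none of the 10 of the largest fold.

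Phka2, the regulatory alpha subunit of phosphorylase kinase in liver, had 8 peaks, all in intron 19 of 32 on chromosome X. Of these, 7 had no repeat and lay within 28.3 kb at chrX:36443695-36471983 (rn6). Their folds were 2.86 to 4.13 on backgrounds of 35.9 to 91.6 tags, the upper of which was the highest background of any intronic peak. The strongest, at chrX:36469782-36470472, had 252 tags, a fold of 4.13 (3.64 to 4.67) and a -log10 p-value of 74.4. The remaining Phka2 peak, at an L1_Rat1 copy, had 34 tags and a fold of 7.47 (5.17 to 10.4). Intron 19 of Phka2 thus held both kinds of peak, those with many tags and low ratio and that with few tags and a higher one. Lmntd1, which encodes a protein with a lamin tail domain, had 3 peaks with no repeat within 7.97 kb at chr4:179675730-179683703 (rn6), with folds of 3.0, 3.89 and 4.02 on backgrounds of 29.4 to 35.3 tags.

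Outside the ribosomal RNA hosts, those with several peaks at L1 or RatSatRep2 had higher ratios than Lmntd1 and the Phka2 peaks without a repeat. Grm8, a metabotropic glutamate receptor, had 5 peaks in introns 1, 5, 6 and 8 of 9, spread over 820 kb of chromosome 4, where the list has 14 peaks in all. An L1 element was at 4 of them and RatSatRep2 at 1. The highest, at an L1_Rat1 copy in intron 5 at chr4:54899229-54899500 (rn6), had 30 tags and a fold of 14.5 (9.79 to 20.7), and the lowest, in intron 1, a fold of 6.74 (4.93 to 8.99). Htr2c, a serotonin receptor, had 3 peaks in introns 2 and 4 of 5, and all 3 were at RatSatRep2, with folds of 6.96, 7.66 and 10.4. Suclg2, a subunit of succinyl-CoA ligase, had 3 peaks at L1 in introns 6, 8 and 10 of 10, with folds of 5.02, 5.12 and 7.19. Sorcs3 had, besides its CpG island, L1 peaks in introns 1 and 2 with folds of 4.60 and 5.10, far below that at the island.

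**Figure D3:**
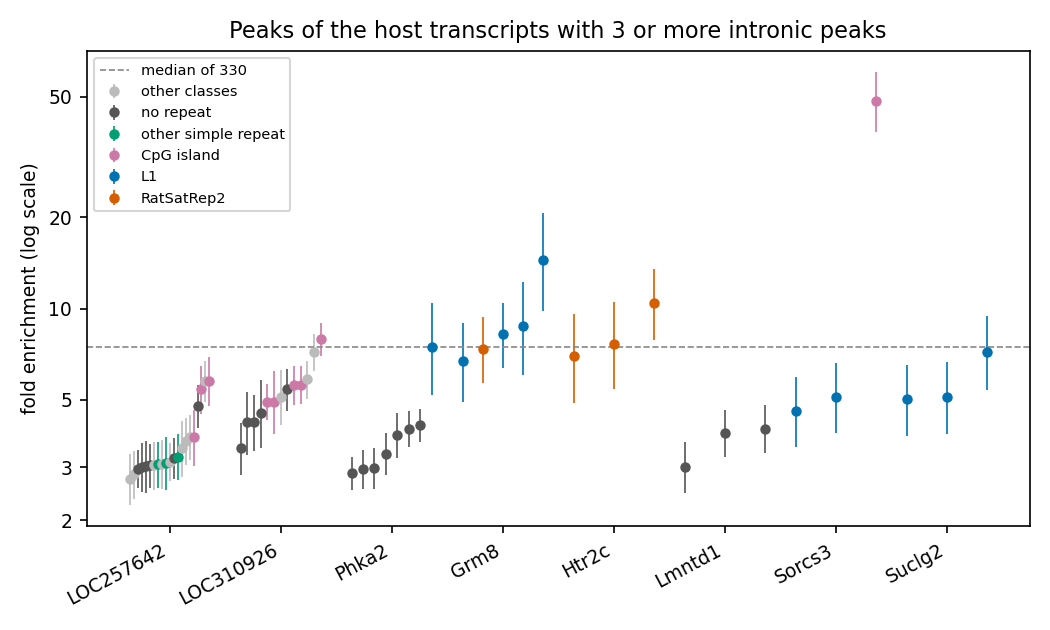
Fold enrichment (y axis, log scale) of each peak of the 8 host transcripts with 3 or more intronic peaks, coloured by the feature at the centre, with exact Poisson intervals of the pileup as bars. The dashed line is the median of the 330 peaks, 7.47, and the peaks of LOC257642 and Lmntd1 and those of Phka2 without a repeat lie below it, while the Sorcs3 CpG island lies at 48.4.

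At 13 intronic peaks in 8 hosts the nearest start site was that of a microRNA gene, 7 genes in all. This is 3.94% of the intronic peaks (2.32 to 6.62). The share was 1.73% of the intergenic peaks (1.18 to 2.53) and 2.02% of all annotated peaks (1.48 to 2.75). The intronic and intergenic intervals overlapped, and no test was made. Several of the 13 peaks share a host, Grm8 or Htr2c, and peaks of 1 host are not independent of each other. The Grm8 peaks in introns 5, 6 and 8 were nearest to Mir592, the gene of rno-miR-592, at 283 to 697 kb. The Htr2c peaks were nearest to Mir1298, at 25.3, 27.7 and 30.7 kb. Both microRNA genes lie inside their hosts, as do Mir551b in Egfem1, Mir105 in Gabra3, Mir875 in Vps13b and Mir3565, the gene of rno-miR-218b, in Slit2. The peak in Slit2, an axon guidance ligand, was 60.4 kb from Mir3565 with a fold of 7.81, and that in Gabra3, a GABA receptor subunit, was 127 kb from Mir105 with a fold of 7.83. The closest of the 13 lay 25.3 kb from the start of the microRNA gene. At 11 of the 13 the microRNA gene was inside the host, and the exceptions were the peaks in Kcnip4 and Ttc17. Egfem1, Gabra3, Slit2 and Ttc17 were chosen after their values were seen.

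Peaks were most often in the first intron. It held 88 of the 330 peaks (26.7%, 22.2 to 31.7), followed by intron 2 with 50, intron 3 with 33 and intron 4 with 26, and 55 were in introns beyond the tenth. Of the 88 peaks in the first intron, 23 belonged to ribosomal RNA hosts. Without those, it held 65 of 294 peaks (22.1%, 17.7 to 27.2), where an equal share for every intron of each host would give 11.4%. That figure counts introns and not their lengths, which were not used here. The hosts outside ribosomal RNA had a median of 12 introns (quartiles 8 and 21, range 1 to 99). Enrichment was alike along the gene, with a median fold of 7.67 at the 61 peaks in the first intron of hosts with several introns, 7.74 at the 210 in inner introns and 8.10 at the 19 in the last. L1 was at 47.5% (35.5 to 59.8) of the first-intron and 43.3% (36.8 to 50.1) of the inner peaks, and the intervals overlapped.

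**Figure D4:**
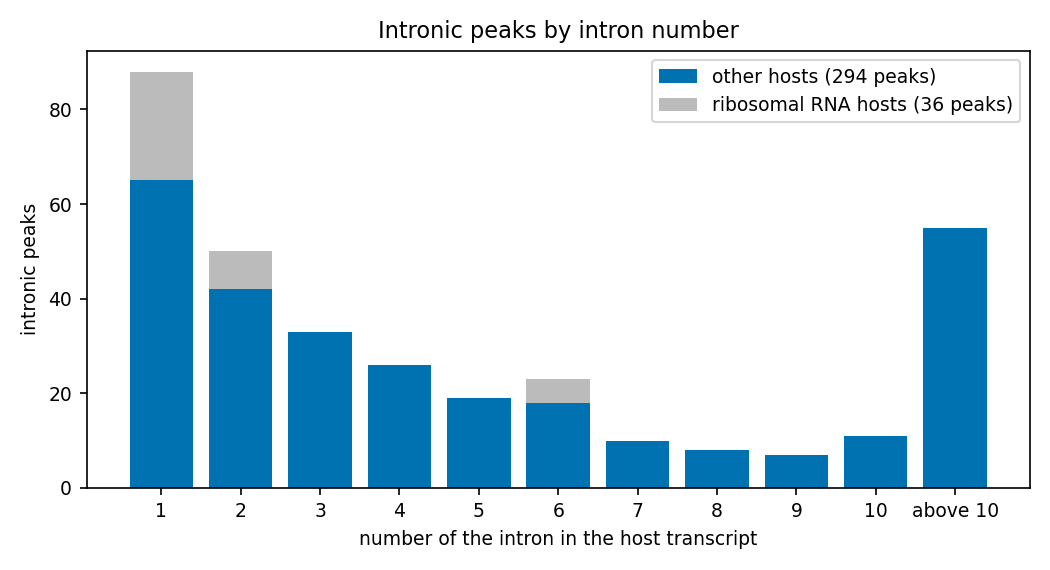
Number of intronic peaks (y axis) by the number of the intron in the host transcript (x axis), with the ribosomal RNA hosts in grey. The first intron holds 88 peaks, 65 of them in other hosts, and introns beyond the tenth hold 55.

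Under 5 kb from the nearest start site of any gene lay 18 of the 330 intronic peaks (5.45%, 3.48 to 8.46), and 11 of the 18 were in ribosomal RNA hosts. For 211 of the 330 peaks (63.9%, 58.6 to 68.9) the host transcript was also that of the nearest start site, and for these the distance had a median of 46.5 kb (quartiles 21.2 and 160 kb). Of the 211, 8 lay under 5 kb from the start of the host, 10 at 5 to 10 kb, 91 at 10 to 50 kb (43.1%, 36.6 to 49.9), 31 at 50 to 100 kb, 60 at 100 to 500 kb and 11 beyond 500 kb. The median distance was 56.8 kb at L1, 46.4 kb at RatSatRep2 and 45.4 kb at no repeat, where the upper quartiles were 153, 172 and 371 kb. The values at no repeat rest on 26 peaks, of which 7 were in intron 19 of Phka2 alone, at 454 to 482 kb. At the 5 CpG islands outside ribosomal RNA hosts the median distance was 15.3 kb. The CpG islands of LOC310926 for which the host had the nearest start lay at 1.24 and 3.5 kb. In ribosomal RNA hosts the nearest start was that of the host at only 2 of 36 peaks, and in the others at 209 of 294 (71.1%, 65.7 to 76.0).

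Another peak of the list lay within 10 kb of 138 intronic peaks (41.8%, 36.6 to 47.2). This held for all 36 peaks in ribosomal RNA hosts and for 102 of the other 294 (34.7%, 29.5 to 40.3). Intergenic peaks had a neighbour in 41.7% of cases (39.2 to 44.2), an interval that overlaps both of the intronic ones with and without ribosomal RNA hosts. The 20 intergenic peaks at ribosomal RNA repeats were kept in that share, so it is not matched to the intronic share without such hosts. With a -log10 p-value of at least 25 required, the intronic share was 21.8% (16.2 to 28.7), and that of the intergenic peaks was not computed at this filter.

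Intronic peaks were on 20 chromosomes and on no unplaced sequence. Chromosome 14 had the most, 45 of its 114 annotated peaks (39.5%, 31.0 to 48.6), and 34 of the 45 were in ribosomal RNA hosts. Chromosomes 2 and 4 had 36 each, of 167 and 152 annotated peaks. Chromosome 1 had 33 of 286 (11.5%, 8.34 to 15.8), and chromosome 19 the fewest among the chromosomes with any, 2 of 44 (4.55%, 1.26 to 15.1). Chromosome X, with 21 of 121 (17.4%, 11.6 to 25.1), was close to the share over all annotated peaks.

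The hosts were sorted into gene families by symbol. Of 23154 protein-coding genes in RefSeq (GRCr8), 237 hosted an intronic peak, or 1.02%. Grm7, a metabotropic glutamate receptor as is Grm8, had a fold of 11.6 (8.86 to 14.9) at L1. Cadherin and protocadherin genes hosted an intronic peak in 4 of 82 cases (4.88%, 1.91 to 11.9). These were Cdh8 with 14.7 (10.5 to 20.0) at L1, and Cdh20 with 13.3 (8.66 to 19.4), Pcdh15 with 8.14 (6.66 to 9.85) and Pcdh11x with 6.73 (5.18 to 8.59), these 3 at RatSatRep2. The folds in these 4 hosts ran from 6.73 to 14.7, on both sides of the median of the 330. Channel genes with symbols in Kcn, Cacn, Scn or Trp hosted a peak in 8 of 181 cases (4.42%, 2.26 to 8.48), with folds of 4.13 in Cacna1e to 8.65 in Kcnip4 and a median of 5.88, below the median of all intronic peaks. Solute carriers hosted a peak in 5 of 402 cases (1.24%, 0.532 to 2.88), with a median fold of 11.6 and a highest of 14.5 in Slc17a5.

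Enzymes of cyclic nucleotide and lipid signalling came from small families. Phosphodiesterase genes hosted a peak in 4 of 26 cases (15.4%, 6.15 to 33.5), which were Pde1b at its CpG island, Pde5a with a fold of 12.4, Pde11a with 8.33 and Pde1c with 6.39. Adenylyl cyclases did so in 2 of 12 cases (16.7%, 4.70 to 44.8), Adcy2 with 4.93 and Adcy8 with 5.18, both at RatSatRep2. Phospholipases C did so in 2 of 13 cases (15.4%, 4.33 to 42.2), Plcb4 with 8.51 and Plcb1 with 6.52. Chemosensory receptor genes, a family of 1380 here, had 7 hosts (0.507%, 0.246 to 1.04) with 9 peaks. Vom2r37, a vomeronasal receptor, had the lowest of them, 2.77 (2.43 to 3.14), and the other 8 had folds of 6.77 to 9.78 at L1 or RatSatRep2. No family was tested for enrichment against the 1.02% of all protein-coding genes, and the lengths of genes and introns were not used here. The families were chosen with earlier results of these data known, so their shares cannot show an excess over that figure.

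A list of 61 names of genes with roles in spermatids had 7 hosts (11.5%, 5.67 to 21.8, beside 1.02% of all protein-coding genes, with no test and no account of gene length). The list was drawn up with earlier results of these data known, so its share cannot show an excess over that of all genes. The 7 hosts held 9 peaks with a median fold of 8.46. Cdyl, a chromodomain protein of the testis and other tissues, had a peak at a repeat of AGGA in intron 3 of 9 at chr17:29837848-29838059 (rn6), with 22 tags over the genome background and a fold of 13.3 (8.34 to 20.2). Boll, an RNA-binding protein of the DAZ family, had an L1_Rn peak in intron 6 of 9 at chr9:61949376-61949786 (rn6) with a fold of 12.6 (8.22 to 18.4). These were the highest of the list, and each rested on under 30 tags. Fndc3a, needed for the adhesion of spermatids to Sertoli cells, had neighbouring L1_Rn peaks in intron 1 of 22 with folds of 11.7 (7.75 to 16.9) and 7.67 (5.62 to 10.2), whose intervals overlapped. Stpg2 had a fold of 9.30 at RatSatRep2 and 6.02 at L1. Zpbp, an acrosomal protein that binds the zona pellucida, had 8.46 (6.39 to 11.0) at RatSatRep2 in intron 2 of 7, Spag16, a protein of the sperm axoneme, 5.80 (4.18 to 7.84) at L1, and Efhb 5.69 (4.34 to 7.32) at RatSatRep2. Of the 9 peaks, 8 were thus at L1 or RatSatRep2, the classes that also led among all intronic peaks.

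The intronic peaks of the largest p-values were close to the end of the annotated list. Vps13b and Hs3st5 each had 30 tags at an L1_Rat1 copy, a fold of 8.06 (5.44 to 11.5) and a -log10 p-value of 17.78. Gask1b had 36 tags at RatSatRep2, a fold of 6.45 (4.52 to 8.93) and a -log10 p-value of 17.86. Their folds lay on both sides of the median of the 330, so that the weakest intronic peaks by p-value were not the weakest by ratio.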

How the data were processed

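The H1T2 peak list was made by the authors from 2 IP and 2 input samples of rat testes, aligned to rn6 as uniquely placed read pairs, with replicates merged before the deposited calls. Its header names MACS 2.0.9 with broad calling, a p-value cutoff of 5e-05, a tag extension of 200 bp and at most 2 (IP) or 3 (input) tags per position, which kept 16203958 of 34071564 IP tags and 78371120 of 83508652 input tags. The study's methods name another MACS version and cutoff, and the header was followed. The depth per sample is not recorded.

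The signal deposited by the authors is the pileup at the summit. The deposited -log10 p-values and the deposited ratio (fold enrichment) are those of the peak caller, and lengths are also as deposited. Local background was computed as pileup divided by fold, and its lowest value, the genome background, was 1.65 tags. Class and element came from the study's HOMER annotation of the peak centre, positions and host from its brackets. Of 256 host transcripts, 238 were matched to RefSeq (GRCr8) for their symbols, 16 of the other 18 were named by the annotation table, and 2 have no name here. An equal share for every intron is the mean over peaks of 1 divided by the introns of the host.

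The rule for named peaks takes the 10 of the largest fold and the 10 of the largest -log10 p-value, all at CpG islands or telomere-type repeats, hosts with 3 or more peaks, the 3 of the lowest -log10 p-value, and hosts in the gene families and the spermatid list, 65 hosts in all, of which 1 is not reported here. The members and lists were chosen with earlier results of these data known. The share of protein-coding genes that host a peak uses the symbols matched in RefSeq. Shares have 95% Wilson intervals, and folds of single peaks exact Poisson intervals. Alternatives were filters on p-value and fold, counting pairs of tags or neighbouring peaks once, leaving out ribosomal RNA hosts or unplaced sequence, requiring that the host has the nearest start site, and other windows. Counting steps were tested on simulated data. Python 3.11.15, numpy 2.4.6, pandas 2.3.3, scipy 1.17.1 and matplotlib 3.10.9 were used.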

Additional observations from a re-analysis of the deposited data

How the results depend on the processing

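For 12 results 64 alternatives were computed. In 51 the value stayed within the interval of the reported value, or a count within 1.5 times of it, and in 13 it moved. With a -log10 p-value of at least 25, 165 peaks in 127 hosts were left, the share at L1 was 32.7% in place of 39.4%, and 13 hosts in place of 31 had 2 or more peaks. That filter removes peaks, which lowers the counts by construction, while the cause of the lower L1 share was not tested. A fold of at least 5 lowered the share with no repeat from 12.7% to 6.81%, and counting peaks of 1 host within 10 kb once lowered it to 8.77%. The cause was not tested in either case. Without ribosomal RNA hosts the first-intron share was 22.1% in place of 26.7%, since 23 of the peaks left out were in the first intron. Requiring that the host has the nearest start site left 211 peaks and 19 hosts with 2 or more. The share with a neighbouring peak, 41.8% within 10 kb, was 33.0% within 5 kb, 56.4% within 50 kb, 34.7% without ribosomal RNA hosts and 21.8% with the stricter p-value.

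No paired analysis was possible because the replicates were merged before the deposited peaks were called, and for the same reason leaving out a replicate could not be run. Depth limits single peaks: at a pileup of 24 tags the interval of a fold of 14.5 runs from 9.30 to 21.6. Counted by pairs of tags it runs from 7.50 to 25.3. The intervals of single peaks count every tag unless pairs are named, and with all pileups even they are too narrow. Pileups at repeats depend on how the aligner placed reads, which the list does not record. Shares hold for the strongest peaks alone.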
